A study of Mus musculus with 6 samples.

Results

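The genes described here are 10 ligands of the bone morphogenetic protein (BMP) and growth and differentiation factor (GDF) family, *Bmp2*, *Bmp3*, *Bmp4*, *Bmp5*, *Bmp6*, *Bmp7*, *Gdf5*, *Gdf6*, *Gdf10* and *Gdf11*, out of 32286 genes in the count matrices. Their rows were taken by symbol alone, each symbol matched 1 gene, and all 10 passed the filter on low counts. The list of members was drawn up with earlier results of these data known. The study grew "digits in a dish" (DID) cultures, in which dissociated mesenchyme of the distal forelimb of E11.5 CD-1 mouse embryos, pooled from several embryos, is plated at high density and forms cartilage elements that resemble digits. Single cells were profiled by droplet RNA sequencing of the 3′ ends of transcripts at Day 2, Day 7 and Day 10 of culture, with 2 independent cultures, called replicates A and B, at each day and 6 libraries in all. The labels give all cultures the same CD-1 strain, stage and tissue and name no treatment or mutation, so the groups differ in days of culture. Cells of pooled embryos cannot be told apart by animal.

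BMP and GDF ligands are secreted dimers that bind a pair of type I and type II receptor kinases at the cell surface. Most of them lead to phosphorylation of SMAD1, SMAD5 and SMAD9, which enter the nucleus and switch on targets such as the Id and Msx genes, whereas GDF11 acts through SMAD2 and SMAD3. In the developing limb these ligands are known for driving cartilage condensation, for the death of the tissue between the digits, for the placing of joints and later for bone formation, and secreted antagonists such as Noggin hold them in check.

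The libraries differed in depth. Between 9448 and 16486 cells per library passed the study's limits, 72099 in all, with 178022112 to 260245417 UMIs (unique molecular identifiers, each standing for 1 captured transcript) per library. Median depth per cell was 24197 and 22128 UMIs in the Day 10 libraries, 8062 and 9337 in those of Day 7 and 18587 and 3871 in those of Day 2, replicate B of which was the shallowest, with 41.4% of its cells under 3000 UMIs. Any 2 libraries shared between 0.254% and 0.543% of the barcodes of the smaller one. A ligand had between 35 and 17695 UMIs in a library. A 3′ count is not given per length of transcript, so levels are compared within a gene and not between genes.

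The 10 genes lie on 7 mouse autosomes in the GRCm38 annotation, and counts were taken over each whole gene. *Bmp2*, *Gdf5* and *Bmp7* are at chr2:133552159-133562885, chr2:155941023-155945367 and chr2:172868012-172940321. *Bmp4* and *Gdf10* are at chr14:46383520-46390669 and chr14:33923587-33937983. *Bmp3* is at chr5:98854415-98884396, *Gdf6* at chr4:9844372-9862345, *Bmp5* at chr9:75775364-75900310, *Bmp6* at chr13:38345107-38500302 and *Gdf11* at chr10:128882295-128891718. *Bmp4*, *Bmp6* and *Gdf5* overlap annotated genes only on the opposite strand. *Bmp5* overlaps the antisense gene *Gm26903* and, on its own strand, *Gm47723*, so that reads where the latter overlaps it are of uncertain origin.

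The proximal promoters of 5 of the 10 ligands are shown, those with a RefSeq entry among the sequences used here, to give the sequence next to the start of ligands whose levels are described over the days of culture. Each is the 250 bases before the RefSeq start site in GRCm38.p6, written 5′ to 3′ on the strand of the gene, with E-boxes (CANNTG) and TATA boxes (TATAAA) in capitals after a search of both strands. They lie at chr14:46390670-46390919 on the minus strand for *Bmp4*, chr9:75775115-75775364 on the plus strand for *Bmp5*, chr13:38345466-38345715 on the plus strand for *Bmp6*, chr14:33923337-33923586 on the plus strand for *Gdf10* and chr10:128891719-128891968 on the minus strand for *Gdf11*. The *Bmp6* stretch lies inside the gene interval given above, so its RefSeq start is downstream of the start in that annotation.
Bmp4: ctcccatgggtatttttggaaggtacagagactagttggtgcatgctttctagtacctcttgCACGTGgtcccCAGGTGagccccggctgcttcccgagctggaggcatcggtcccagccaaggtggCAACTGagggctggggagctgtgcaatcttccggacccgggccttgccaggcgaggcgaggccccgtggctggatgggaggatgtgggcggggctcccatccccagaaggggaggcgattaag
Bmp5: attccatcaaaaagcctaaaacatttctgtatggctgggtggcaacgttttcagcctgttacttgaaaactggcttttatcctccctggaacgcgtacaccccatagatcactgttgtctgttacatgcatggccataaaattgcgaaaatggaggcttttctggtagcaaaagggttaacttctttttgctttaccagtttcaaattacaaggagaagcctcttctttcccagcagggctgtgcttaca
Bmp6: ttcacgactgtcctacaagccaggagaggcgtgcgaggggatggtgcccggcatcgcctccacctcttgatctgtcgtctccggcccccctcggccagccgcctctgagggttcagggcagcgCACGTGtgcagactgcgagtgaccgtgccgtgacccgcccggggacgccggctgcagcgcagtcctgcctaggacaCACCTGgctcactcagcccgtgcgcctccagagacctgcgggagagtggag
Gdf10: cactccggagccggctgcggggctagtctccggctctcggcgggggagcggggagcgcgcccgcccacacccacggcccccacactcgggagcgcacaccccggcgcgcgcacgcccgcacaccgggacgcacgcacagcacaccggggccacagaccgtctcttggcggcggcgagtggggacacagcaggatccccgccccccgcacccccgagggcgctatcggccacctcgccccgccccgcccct
Gdf11: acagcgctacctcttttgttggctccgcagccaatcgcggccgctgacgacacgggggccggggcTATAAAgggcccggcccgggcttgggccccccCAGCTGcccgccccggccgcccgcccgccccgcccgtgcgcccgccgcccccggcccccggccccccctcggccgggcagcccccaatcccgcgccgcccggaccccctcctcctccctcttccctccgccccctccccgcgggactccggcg
The *Bmp5* stretch had a GC content of 42.8% with 4 CpG dinucleotides, below the median of 52.4% and 6 over 32851 promoters of the same length. The other 4 stretches were richer in GC than that median, from 63.2% in *Bmp4* and 68.8% in *Bmp6* to 78.8% in *Gdf10* and 81.2% in *Gdf11*. E-boxes numbered 3 in *Bmp4*, 2 in *Bmp6* and 1 in *Gdf11*, and 66.2% of all these promoters held at least 1. *Gdf11* was the only one of the 5 with the letters TATAAA, which 12.4% of all promoters held. Promoters of *Bmp2*, *Bmp3*, *Bmp7*, *Gdf5* and *Gdf6* were not analysed here.

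To ask how the supply of each ligand changed as the cultures aged, UMIs were summed over all cells of a library, scaled by library size and TMM factors to CPM (TMM CPM, the counts of a gene relative to all counts) and compared between days with edgeR's quasi-likelihood test over 18987 genes. In such sums, fewer cells of a type and less RNA per cell cannot be told apart. By Day 10, *Bmp7*, *Gdf5*, *Gdf6*, *Gdf11*, *Bmp5*, *Bmp2* and *Bmp4* were lower than at Day 2, and *Bmp3* and *Bmp6* were higher. In the fit of all 6 libraries, *Gdf10* was the only ligand whose change did not pass the test.

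*Bmp2* and *Bmp4* are close relatives that signal through BMPR1A and BMPR1B. *Bmp4* was at 76.6 and 72.4 TMM CPM at Day 2 (replicate A, then B), at 46.9 and 48.2 at Day 7, then 52.5 and 57.3 at Day 10. Both Day 2 libraries lay above all others, and Day 7 and Day 10 did not overlap. *Bmp4* fell by 0.65 ± 0.06 (SE) on the log2 scale from Day 2 to Day 7 (edgeR adjusted p = 1.31e-05, n = 2 per day). *Bmp4* then rose by 0.21 ± 0.06 (edgeR adjusted p = 0.0177), a call that was lost without Day 7 replicate A (edgeR adjusted p = 0.121), Day 7 replicate B (0.0649) or Day 10 replicate B (0.132), and also with all deposited barcodes, where the change was 0.10 (edgeR adjusted p = 0.223). *Bmp2*, a ligand that bone-forming cells need, was at 14.8 and 15.8 TMM CPM at Day 2, 11.8 and 10.6 at Day 7, then 8.56 and 9.09 at Day 10. Its 3 pairs of values did not overlap and stepped down at each day. The log2 fold changes of *Bmp2* were -0.45 ± 0.07 from Day 2 to Day 7 and -0.34 ± 0.07 from Day 7 to Day 10 (edgeR adjusted p = 0.000376 and 0.0039).

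*Bmp5*, *Bmp6* and *Bmp7* form a second subgroup, whose members bind the type I receptor ACVR1. *Bmp7* was at 21.2 and 22.5 TMM CPM at Day 2, 7.45 and 7.09 at Day 7, then 3.19 and 4.06 at Day 10. The days did not overlap, and each later day was lower. The log2 fold changes of *Bmp7* were -1.59 ± 0.10 to Day 7 and -1.006 ± 0.10 from there to Day 10, the latter with an edgeR adjusted p of 0.000129. *Bmp5*, the gene mutated in short-ear mice, was at 7.45 and 8.19 TMM CPM at Day 2, 7.84 and 6.92 at Day 7, then 2.77 and 2.82 at Day 10. Its Day 2 and Day 7 libraries overlapped, with a log2 fold change of -0.08 ± 0.08 (edgeR adjusted p = 0.391), and both Day 10 libraries lay below them, with a fall of 1.40 ± 0.09 from Day 7 (edgeR adjusted p = 1.48e-05). *Bmp6*, which is known from maturing cartilage, took the opposite course. It was at 0.273 and 0.428 TMM CPM at Day 2, 2.71 and 2.42 at Day 7, then 2.66 and 2.10 at Day 10. The Day 2 libraries were the lowest, and Day 7 and Day 10 overlapped. *Bmp6* rose by 2.88 ± 0.21 on the log2 scale from Day 2 to Day 7 (edgeR adjusted p = 3.28e-06), and its log2 fold change from Day 7 to Day 10 was -0.10 ± 0.18 (edgeR adjusted p = 0.644).

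*Bmp3* and *Gdf10* are a diverged pair, and BMP3 is known to oppose other BMPs and to limit bone mass. *Bmp3* was at 1.66 and 1.76 TMM CPM at Day 2, 9.66 and 10.8 at Day 7, then 9.38 and 10.99 at Day 10. The Day 2 libraries stood apart from the 4 later ones, which overlapped. Its log2 fold change was 2.58 ± 0.10 from Day 2 to Day 7 (edgeR adjusted p = 9.34e-08) and -0.01 ± 0.09 from Day 7 to Day 10 (edgeR adjusted p = 0.956). *Gdf10* varied less, at 24.8 and 25.1 TMM CPM at Day 2, 22.2 and 17.6 at Day 7, then 20.9 and 22.9 at Day 10. Day 7 replicate B was its lowest library, and Day 7 and Day 10 overlapped. The log2 fold change of *Gdf10* from Day 2 to Day 7 was -0.33 ± 0.10 (edgeR adjusted p = 0.0167). That call was lost without Day 2 replicate A (edgeR adjusted p = 0.0536), Day 2 replicate B (0.0634) or Day 7 replicate B (0.127), and the change was -0.49 without Day 7 replicate A and -0.16 without Day 7 replicate B. From Day 7 to Day 10 it was 0.14 ± 0.10 (edgeR adjusted p = 0.274), and 0.32 without Day 7 replicate A (edgeR adjusted p = 0.0183). From Day 2 to Day 10 it was -0.19 ± 0.10 (edgeR adjusted p = 0.111). With each library left out it ranged from -0.24 to -0.11. It was -0.18 without Day 7 replicate A or B, and in both of these fits it passed the test.

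*Gdf5* and *Gdf6* are the ligands best known from forming joints, and loss of *Gdf5* shortens the digits of brachypodism mice. *Gdf5* was at 20.2 and 17.5 TMM CPM at Day 2, 9.22 and 11.7 at Day 7, then 2.31 and 2.53 at Day 10. The days did not overlap. *Gdf5* fell by 0.85 ± 0.11 on the log2 scale from Day 2 to Day 7 and by 2.11 ± 0.13 from Day 7 to Day 10 (edgeR adjusted p = 0.00016 and 1.34e-05). *Gdf6* was at 0.9303 and 0.860 TMM CPM at Day 2, 1.58 and 2.68 at Day 7, then 0.163 and 0.158 at Day 10, so that Day 7 was the highest day and Day 10 the lowest, without overlap. It rose by 1.25 ± 0.23 on the log2 scale to Day 7 (edgeR adjusted p = 0.00116), or by 0.82 without Day 7 replicate B, and then fell by 3.72 ± 0.28 (edgeR adjusted p = 3.11e-05). The Day 10 libraries held only 40 and 35 *Gdf6* UMIs. *Gdf11*, a relative of myostatin that patterns the axial skeleton, was at 12.4 and 13.4 TMM CPM at Day 2, 4.60 and 4.28 at Day 7, then 5.47 and 4.70 at Day 10. The Day 2 libraries stood far above the others, and Day 7 and Day 10 lay close without overlap. *Gdf11* fell by 1.54 ± 0.09 on the log2 scale from Day 2 to Day 7 (edgeR adjusted p = 7.07e-07), and its change from Day 7 to Day 10 was 0.19 ± 0.09 (edgeR adjusted p = 0.0964). With each library left out the latter change ranged from 0.081 to 0.30, the highest without Day 10 replicate B, where it passed the test. It also passed with cells of at least 3000 UMIs (0.24, edgeR adjusted p = 0.0461).

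**Figure D1:**
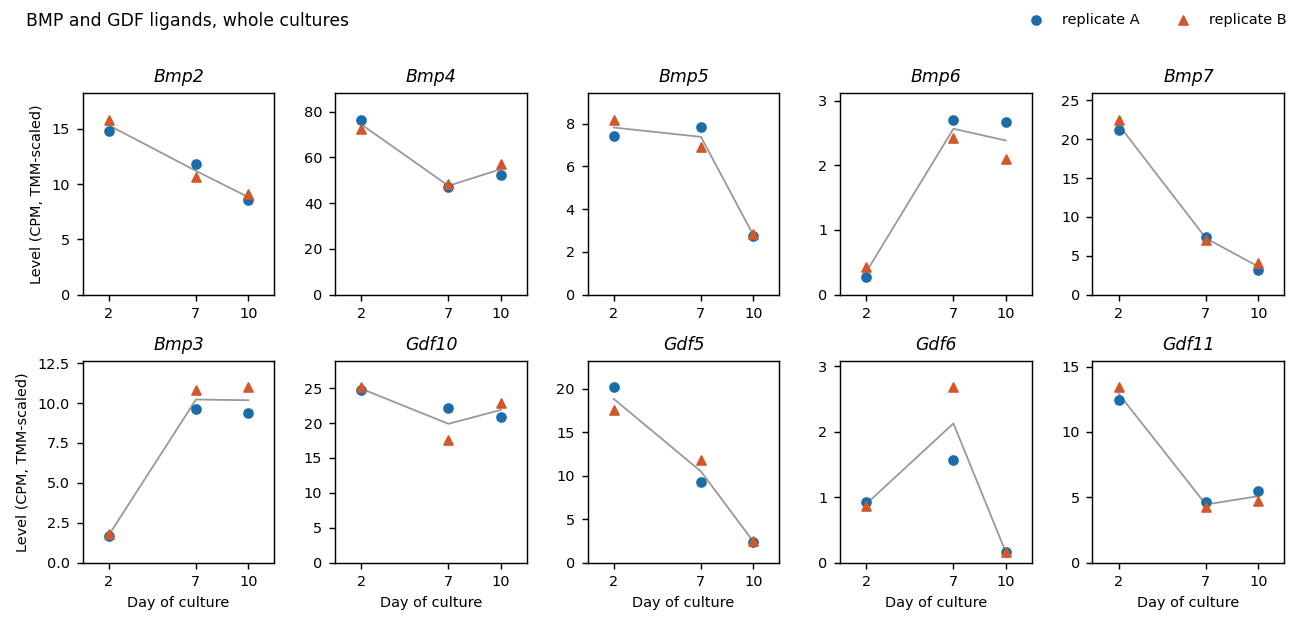
Level of each ligand in whole cultures, in TMM CPM on a linear axis that starts at 0, against day of culture, with circles for replicate A, triangles for replicate B and a grey line through the means. *Bmp7* and *Gdf5* step down at each day, *Bmp3* and *Bmp6* step up once between Day 2 and Day 7, and *Gdf6* peaks at Day 7 at 1.58 and 2.68 TMM CPM.

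Counted together, 3 of the 10 ligands were called higher and 6 lower at Day 7 than at Day 2, beside 35.7% and 34.6% of all genes tested (70.3% in either direction). Between Day 7 and Day 10, 1 ligand was called higher and 5 lower, beside 26.3% and 25.9% of all genes (52.2% in either direction). From Day 2 to Day 10, 2 were called higher and 7 lower, beside 39% and 38.2% of all genes (77.3% in either direction). The median log2 fold change of the 10 ligands was -0.39, -0.22 and -1.07 in these 3 comparisons, and that of all genes was 0.01, -0.02 and 0.00. The comparisons share libraries, so they are not independent of each other.

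**Figure D2:**
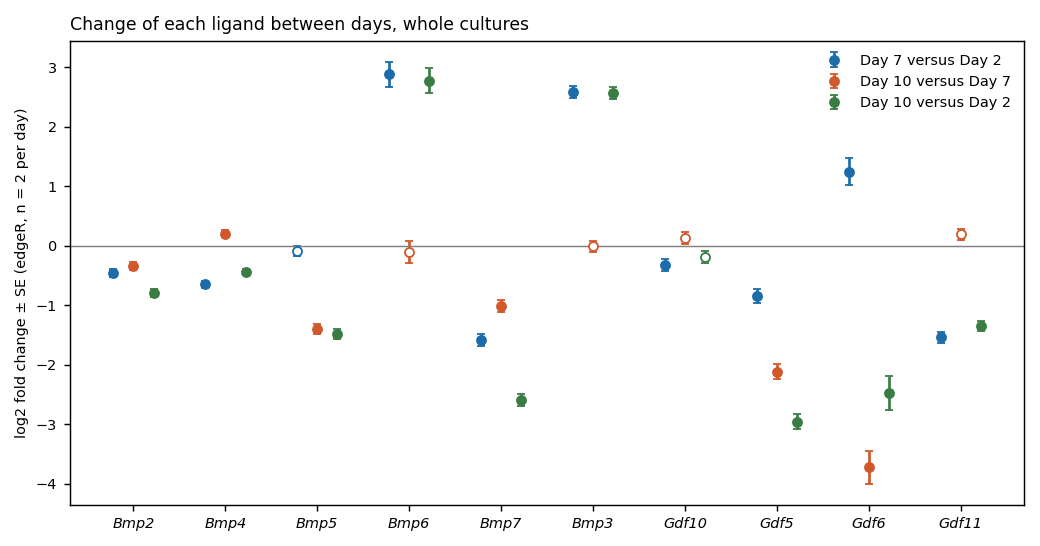
Log2 fold change of each ligand in whole cultures for Day 7 against Day 2, Day 10 against Day 7 and Day 10 against Day 2, with SE bars and filled points where the edgeR adjusted p was under 0.05. *Bmp3* and *Bmp6* lie near 2.6 to 2.9 on the positive side for Day 7 against Day 2, and *Gdf6* and *Gdf5* lie farthest on the negative side for Day 10 against Day 7, at -3.72 and -2.11.

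The share of cells with at least 1 UMI of a ligand was compared after each cell was thinned to 1000 UMIs, since the libraries differ in depth. Cells with fewer UMIs were left out, which kept 9328 of 9448 cells in Day 2 replicate A, 10180 of 10385 and 9828 of 9949 in Day 10 replicates A and B and all cells in the other 3 libraries. *Bmp4* was then found in 6.89% and 6.39% of cells at Day 2, 3.97% and 3.64% at Day 7, then 4.69% and 4.69% at Day 10. For *Gdf5* the shares were 2.70% and 1.94%, 0.994% and 1.51%, and 0.354% and 0.244%. Both Day 10 shares were below both Day 2 shares for 8 of the 10 ligands, all but *Bmp3* and *Bmp6*. As counted, without thinning, this held for 5 ligands (*Bmp5*, *Bmp7*, *Gdf5*, *Gdf6* and *Gdf11*), and the unthinned *Bmp4* shares were 47.0% and 28.9% at Day 2 against 37.2% and 36.5% at Day 10. How many of all genes did the same was not counted, so these counts describe the ligands alone. The thinned *Gdf6* shares rested on 7 and 18 cells at Day 2 and on 3 and 2 at Day 10. For *Gdf10* the 95% intervals of Day 10 replicate A (2.18% to 2.80%) and Day 2 replicate B (2.35% to 2.84%) overlapped.

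The rest of the pathway was read from lists of 53 further genes, of which 50 passed the filter and 14 were called higher and 26 lower at Day 7 than at Day 2. Over all genes 35.7% were higher and 34.6% lower, 70.3% together, and the list counts that follow for Day 7 are to be read against these shares. Of the 7 receptors, 1 was higher and 4 were lower. *Acvr2b*, a type II receptor shared by BMPs, GDF11 and activins, was at 16.5 and 15.8 TMM CPM at Day 2, 3.37 and 3.56 at Day 7, then 2.03 and 2.19 at Day 10. It fell at each step, by 2.22 ± 0.07 and then by 0.72 ± 0.07 on the log2 scale (edgeR adjusted p = 2.56e-08 and 0.000134). *Bmpr1b*, the type I receptor that GDF5 prefers, was at 21.5 and 21.5 TMM CPM at Day 2, 9.94 and 9.11 at Day 7, then 5.66 and 5.21 at Day 10, again lower at each day (log2 fold changes -1.18 ± 0.06 and -0.81 ± 0.07). *Bmpr2* and *Bmpr1a* fell less by Day 7, by 0.46 and 0.26 on the log2 scale, while *Acvr1* rose by 0.39. *Acvr2a* and *Acvrl1* had log2 fold changes of 0.02 and -0.23 that did not pass the test (edgeR adjusted p = 0.774 and 0.0583).

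All 9 Smads and inhibitors of the pathway tested were lower at Day 7 than at Day 2, led by *Smad7*, *Bambi* and *Smad6* with log2 fold changes of -1.08, -0.65 and -0.60. Of 10 target genes, 8 were lower and 1 was higher. *Msx2*, *Id1* and *Msx1*, transcription factors that respond to BMP signals, fell by 1.53, 1.38 and 1.05, and *Runx2*, a regulator of bone and of cartilage maturation, rose by 0.72. Of 11 antagonists, 6 were higher and 3 lower. *Grem1* was at 10.8 and 10.8 TMM CPM at Day 2, 30.9 and 29.3 at Day 7, then 45.5 and 45.7 at Day 10, a rise of 1.48 ± 0.05 and then 0.60 ± 0.05 on the log2 scale. *Sostdc1* fell by 1.92 by Day 7, and *Sost*, at 0.614 TMM CPM or less at Day 2 and Day 7, fell by 2.48. *Nog*, which encodes Noggin, stayed within 39.1 to 46.7 TMM CPM in all 6 libraries, with log2 fold changes of 0.17 and -0.21 at the 2 steps (edgeR adjusted p = 0.0273 and 0.0162).

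Among the proteases that cut the ligand precursors or chordin, *Pcsk5* and *Bmp1* rose by 1.07 and 0.69 by Day 7, and *Tll1* fell by 0.43. Of 11 further ligands of the family, 8 passed the filter. *Gdf15*, a stress-induced member, was at 3.44 and 1.87 TMM CPM at Day 2, 14.2 and 15.4 at Day 7, then 24.4 and 21.6 at Day 10, higher at each day (log2 fold changes 2.47 ± 0.21 and 0.64 ± 0.19). The other 7 were at 1.56 TMM CPM or less in every library, and of these *Gdf3* and *Bmp15* rose by 2.46 and 1.83 by Day 7 from very few counts. In the step from Day 7 to Day 10 the lists split otherwise, with 20 of the 50 genes called higher and 12 lower, beside 26.3% and 25.9% of all genes. Antagonists made up 6 and 3 of them. From Day 2 to Day 10, 17 were called higher and 25 lower, beside 39% and 38.2% of all genes.

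To see which cells held each ligand, the cells of each day were clustered from both replicates with the 10 ligands and the other pathway genes left out of the features, and a cluster took a cell type name only from markers that include no ligand. This gave 13, 17 and 18 clusters at Day 2, Day 7 and Day 10, of which 8, 7 and 8 were named, and cells in unnamed clusters made up 42.1% and 72.1% of the cells at Day 2, 65.5% and 58.3% at Day 7, then 58.6% and 62.6% at Day 10. Of all clusters, 42 had at least 50 cells in each library and were ranked by their CPM, scaled to the UMIs of the cluster. These levels are descriptions without a test. In 18 of the 30 pairs of ligand and day, both library values of the highest cluster lay above every value of the other clusters. The same count was not made for other genes, so it does not show whether the ligands were more confined to 1 cluster than other genes. The highest cluster was counted as matched in another clustering when most cells of the highest cluster there came from it, which also counts a smaller piece of it. By this one-way rule it was matched in both of 2 other clusterings in 13 of the 30 pairs, in 1 of them in 9 and in neither in 8. For *Bmp4* at Day 2, for example, 99.5% of the cells of the highest cluster at 2 times the resolution came from it, but cells in both were only 0.290 of the cells in either.

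*Gdf5* was far higher in 1 cluster than in any other at Day 2. In the joint interzone-like cluster of Day 2, led by *Eomes*, *Pthlh*, *Hhip* and *Col14a1* and named from *Jun*, *Ebf1*, *Erg*, *Wnt9a*, *Osr1* and *Osr2*, *Gdf5* was at 92.8 and 89.0 CPM in replicates A and B. The next cluster had a mean of 21.6 CPM, so both values stood far above the rest. Unthinned, 51.6% and 51.4% of the cells in this cluster had a *Gdf5* UMI, against 4.13% and 3.21% in the deeper of the 2 myocyte-like clusters, a cell type not known for *Gdf5*. The median depths were 11644 and 14150 UMIs in the interzone-like cells and 27546 and 33810 in those myocyte-like cells, and after thinning the shares were 9.08% and 8.14% against 0.317% and 0. In the shallower myocyte-like cluster, with median depths of 2642 and 2440 UMIs, *Gdf5* was higher, at 8.77 and 11.3 CPM from 2 and 22 UMIs, with thinned shares of 0 of 25 cells and 1.04% of 670 cells. The background read from myocyte-like cells thus differed between these clusters, and the interzone-like values lay above both. *Gdf10*, *Bmp7*, *Gdf6* and *Gdf11* had their highest mean in the same Day 2 cluster, at 76.8 and 80.5, 48.9 and 46.1, 3.92 and 3.06, and 30.4 and 29.8 CPM. For *Gdf10* the chondrocyte-like cluster was close, at 71.9 and 72.4 CPM, and for *Gdf11* an unnamed cluster overlapped it. These cells made up 95.3% and 93.8% of the highest *Gdf5* cluster in the other clusterings, which was named interdigital mesenchyme-like at 2 times the resolution and had no name without integration, so the name of the cluster changed with the clustering. The overlap was smaller the other way, since cells in both clusters were 0.475 of the cells in either at 2 times the resolution and 0.662 without integration.

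At Day 7 the joint interzone-like cluster, led by *Grp*, *Nppc*, *Dpt*, *Hopx* and *Osr1*, again held the highest *Gdf5*, at 59.0 and 76.6 CPM against a mean of 10.4 in the next cluster. *Gdf6* was higher there than in any Day 2 cluster, at 16.8 and 23.5 CPM, and the next cluster had a mean of 2.36. At Day 10 the interzone-like cluster had only 89 and 103 cells. *Gdf6* was at 4.23 and 8.83 CPM in it and at a mean of 0.334 in the next cluster, from 6 and 13 UMIs. *Gdf5* was at 17.6 and 2.04 CPM there, from 25 and 3 UMIs, and in replicate A only 4.49% of the 89 cells had any. These values bracket the 10.9 and 11.1 CPM of a chondrocyte-like cluster led by *Steap1*, *Col9a3* and *Matn1*. The name of the Day 10 interzone-like cluster changed with the clustering. At 2 times the resolution no Day 10 cluster was named joint interzone-like. The highest *Gdf6* cluster at that resolution had no name, and 95.05% of its cells came from the interzone-like cluster.

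*Bmp2* peaked in the interdigital mesenchyme-like cluster at Day 2, at 48.6 and 54.0 CPM against a mean of 22.6 in the next cluster. At Day 7 no cluster stood out, and the 2 highest had means of 18.3 CPM. At Day 10 the osteoblast-like cluster, led by *Ifitm5*, *Ibsp* and *Hs3st6*, was highest at 35.04 and 48.4 CPM, with a mean of 15.3 in the next. At 2 times the resolution the highest *Bmp2* cluster of Day 10 was also named osteoblast-like, but only 36.7% of its cells came from this cluster, its mean was lower at 26.0 CPM and its values overlapped those of the next cluster. Without integration the mean was 55.8 CPM and 98.6% of the cells came from it.

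*Bmp4* was spread more widely. Its highest Day 2 cluster had no name, expressed all 5 contractile mesenchyme markers above the other clusters and was led by *Ankrd1*, *Ccl2* and *Krt8*. *Bmp4* was at 150 and 162 CPM there, against a mean of 86.8 in the next, and the cluster held 45.8% and 38.3% of all *Bmp4* UMIs from 26.3% and 19.6% of all UMIs. In the chondrocyte-like class, which leaves out the hypertrophic chondrocyte-like cluster of Day 10, *Bmp4* was low at each day. Those cells held 5.04% and 5.77% of *Bmp4* UMIs from 11.51% and 11.7% of all UMIs at Day 2, 7.81% and 7.58% from 38.7% and 37.5% at Day 7, and 3.01% and 3.44% from 21.4% and 19.4% at Day 10. In the hypertrophic chondrocyte-like cluster *Bmp4* was higher, at 25.3 and 34.0 CPM against 6.92 and 9.70 in the class. At Day 10 the interzone-like cluster was highest, at 137 and 121 CPM. At 2 times the resolution a contractile mesenchyme-like cluster with none of its cells was highest, at a mean of 147.7 CPM. Without integration an interzone-like cluster of 48 and 55 cells had *Bmp4* at 156.8 and 164.7 CPM, above all ranked clusters, but it was not ranked because replicate A had fewer than 50 of its cells, and the highest ranked cluster was an unnamed one at a mean of 82.0 CPM.

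Chondrocyte-like cells held more of the *Bmp6* UMIs than of all UMIs at each day. They held 38.1% and 31.0% of its UMIs at Day 2, 66.4% and 67.6% at Day 7, then 81.0% and 78.6% at Day 10. The Day 2 shares rest on only 24 of 63 and 27 of 87 *Bmp6* UMIs. At 2 times the resolution the highest *Bmp6* cluster of Day 2 had no name and held none of the chondrocyte-like cells used here. At Day 7 *Bmp6* was higher in an unnamed cluster led by *Ibsp* and *Meltf*, at 8.12 and 5.51 CPM, than in the chondrocyte-like class, at 4.35 and 4.04. Its highest Day 10 cluster was the chondrocyte-like one led by *Steap1*, at 14.6 and 11.7 CPM, followed by the other chondrocyte-like cluster at 9.09 and 7.84. The same cells held 15.0% and 15.6% of *Bmp7* UMIs at Day 2, 55.4% and 56.0% at Day 7, then 68.2% and 55.3% at Day 10. Their share of all UMIs, given above beside *Bmp4*, also rose from Day 2 to Day 7 and was lower again at Day 10. Shares of *Bmp6* and *Bmp7* UMIs are thus not levels. The *Bmp7* level in these cells was 31.0 and 34.4 CPM at Day 2 and 10.0 and 9.80 at Day 7. An unnamed Day 10 cluster led by *Msln*, *Sncg* and *Wnt10a* held 2.30% of *Bmp7* UMIs in replicate A, at 3.36 CPM, and 22.4% in replicate B, at 17.5 CPM, so the replicates differed there. *Gdf10* was highest in the *Steap1*-led cluster at Day 10, at 111 and 84.5 CPM. At Day 7 its highest cluster, at 52.3 and 44.7 CPM, had no name, expressed all 7 chondrocyte markers above the other clusters and was led by *Ibsp* and *Meltf*.

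*Bmp3*, *Bmp5* and *Gdf11* were less clearly placed. *Bmp3* at Day 7 was at 34.5 and 27.4 CPM in an unnamed cluster with all 4 cell division markers and at 30.3 and 31.6 in the tenocyte-like cluster, which overlapped. At 2 times the resolution its highest Day 7 cluster was a chondrocyte-like one, at a mean of 46.3 CPM, with none of its cells from that unnamed cluster. Without integration it was another unnamed cluster at a mean of 35.8 CPM, with 15.1% of its cells from the first. At Day 10 *Bmp3* was at 81.1 and 118 CPM in the interzone-like cluster and at 56.4 and 73.4 in the osteoblast-like cluster. At 2 times the resolution its highest Day 10 cluster, at a mean of 94.0 CPM, had no name, and 95.05% of the cells there came from the interzone-like cluster. Without integration the osteoblast-like cluster was the highest ranked one, at a mean of 72.4 CPM, while the interzone-like cluster of 48 and 55 cells, too small to be ranked, had *Bmp3* at 113.1 and 210.3 CPM. The osteoblast-like cells held 13.7% and 16.5% of *Bmp3* UMIs from 2.14% and 2.35% of all UMIs. More *Bmp3* UMIs, 32.8% and 35.7%, fell in an unnamed cluster led by *Gpha2*, *Wfdc2* and *Nrgn*, which had 10.3% and 11.3% of all UMIs and *Bmp3* at 27.9 and 33.2 CPM. *Bmp5* was at 18.1 and 15.7 CPM in chondrocyte-like cells at Day 2, level with an unnamed shallow cluster at a mean of 16.9, and at 20.8 and 19.0 CPM at Day 7 in the unnamed cluster with chondrocyte markers. *Gdf11* at Day 7 was highest in the myocyte-like cluster, at 14.9 and 39.6 CPM, which differ widely and rest on 89 and 77 cells. The immune-like cells of Day 10 had between 0 and 10.8 CPM of any ligand.

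**Figure D3:**
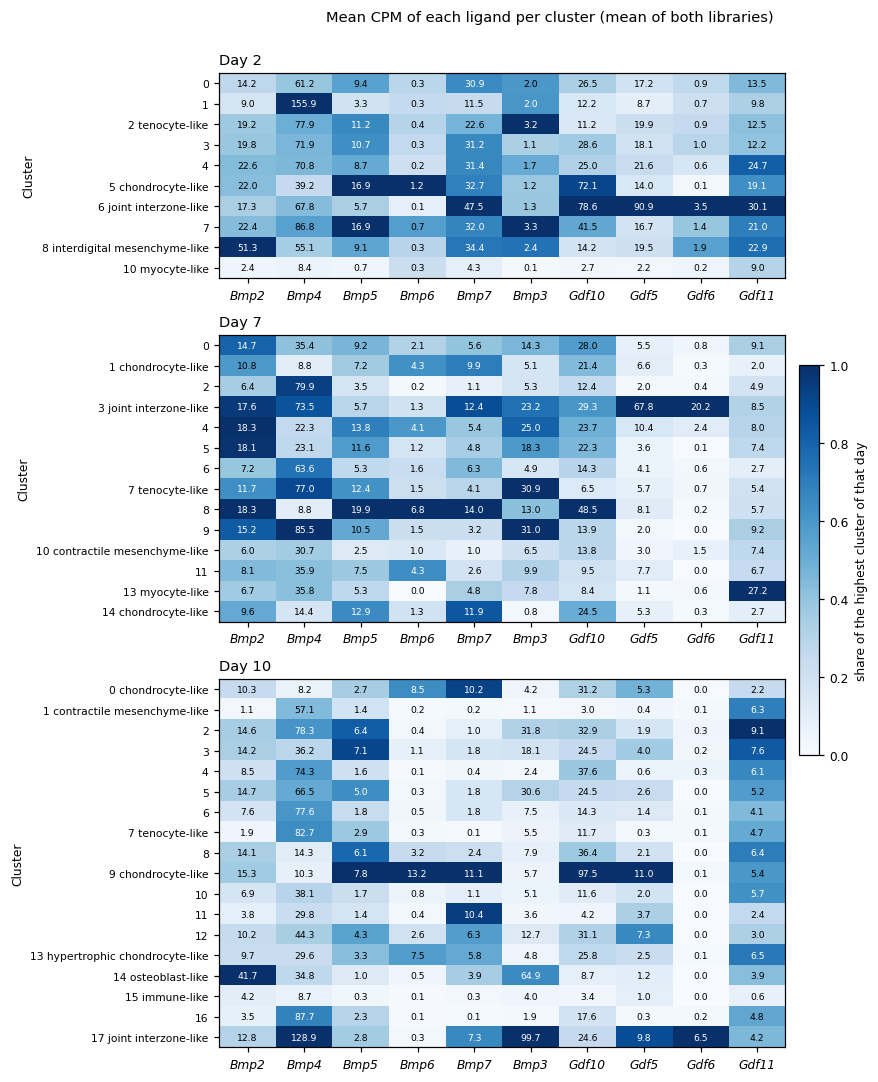
Level of each ligand in every ranked cluster of Day 2, Day 7 and Day 10, with the mean CPM of the 2 libraries printed in each cell and the colour giving the share of the highest cluster of that ligand and day. The joint interzone-like rows carry the darkest *Gdf5* and *Gdf6* cells at Day 2 and Day 7, and *Bmp6* is darkest in chondrocyte-like rows at Day 2 and Day 10.

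**Figure D4:**
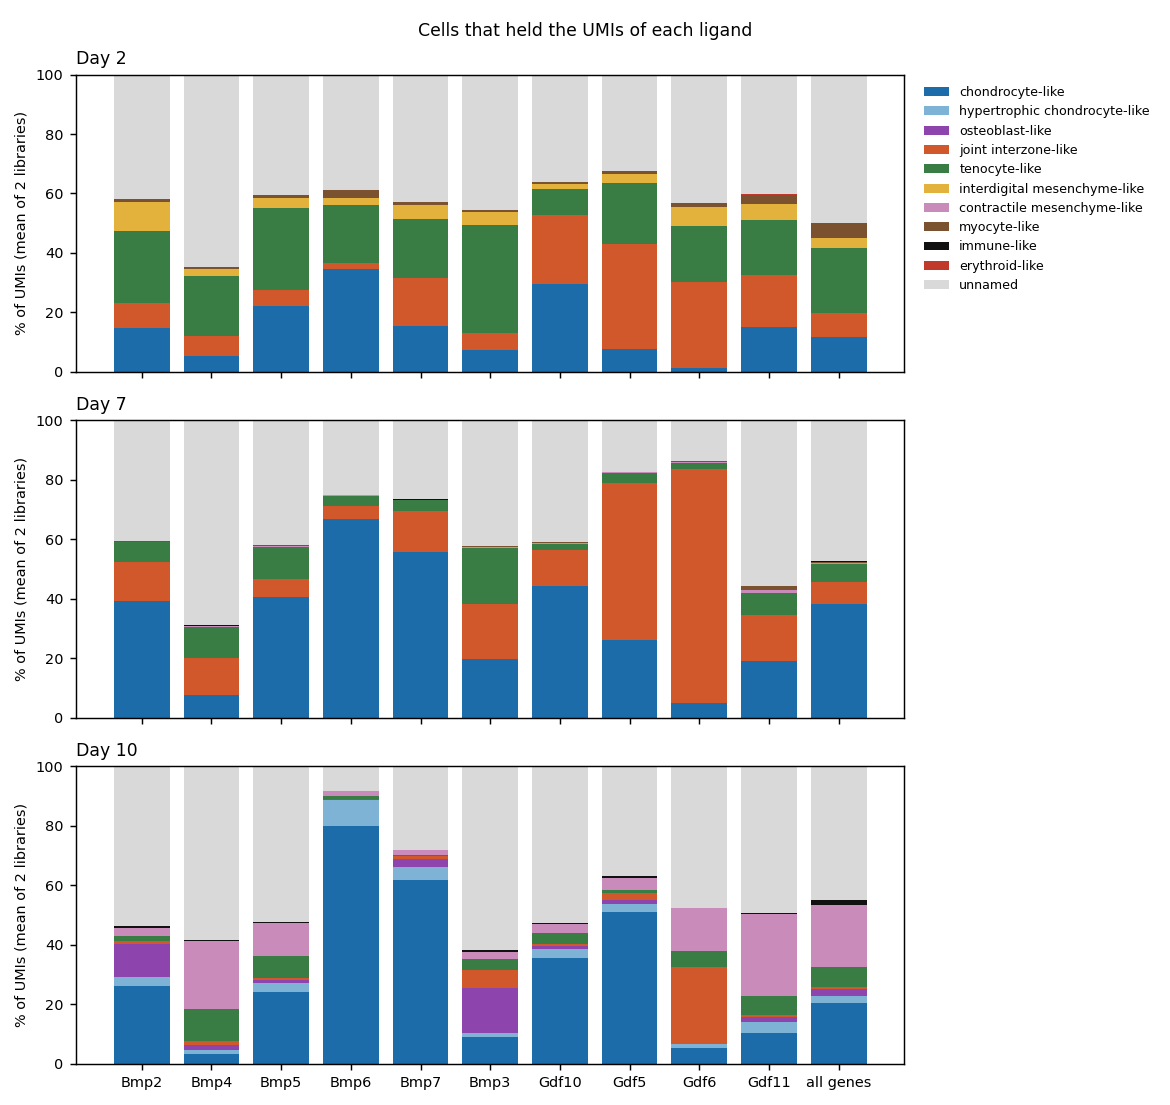
Percent of the UMIs of each ligand that fell in each class of cells, stacked to 100 as the mean of the 2 libraries of a day, with all genes' UMIs as the last bar. In the libraries behind the bars, joint interzone-like cells held 77.9% and 79.3% of *Gdf6* UMIs at Day 7 from 6.85% and 8.37% of all UMIs, and chondrocyte-like cells held 81.0% and 78.6% of *Bmp6* UMIs at Day 10.

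To look within 1 class of cells instead of the mix of the whole culture, the same test was run on sums over chondrocyte-like cells alone. There 15713 genes and 9 of the 10 ligands passed the filter and *Gdf6* did not. These cells were 13.1% and 5.63% of Day 2 cells, 19.6% and 20.4% of Day 7 cells and 17.0% and 15.0% of Day 10 cells. They came from 1, 2 and 2 clusters drawn anew at each day, so the mix of cells within the class could still differ between days. At Day 10, for example, *Gdf10* was at 29.0 and 33.5 CPM in 1 of these clusters and at 111 and 84.5 in the other. The part of that mix in the changes was not tested. From Day 2 to Day 7, 2 ligands were called higher and 7 lower, beside 36% and 36.4% of all genes (72.4% in either direction). From Day 7 to Day 10, 2 were higher and 2 lower beside 20% and 19.2% (39.2% in either direction). Between Day 2 and Day 10, 2 were higher and 7 lower beside 38.5% and 37.2% (75.7% in either direction). The median log2 fold changes of the 9 ligands were -0.70, -0.09 and -0.87.

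From Day 2 to Day 7, *Gdf11* and *Bmp4* had the largest falls among the 9 ligands in these cells. *Gdf11* was at 15.5 and 15.2 TMM CPM at Day 2, 2.47 and 2.25 at Day 7, then 2.78 and 2.60 at Day 10, and fell by 2.70 ± 0.10 on the log2 scale to Day 7 (edgeR adjusted p = 8.25e-12). *Bmp4* was at 30.4 and 32.6 TMM CPM at Day 2, 10.1 and 10.5 at Day 7, then 7.61 and 10.4 at Day 10, and fell by 1.62 ± 0.10 to Day 7 (edgeR adjusted p = 1.93e-09). In both genes the Day 2 libraries stood above all later ones. *Bmp7* and *Bmp5* fell by 1.21 ± 0.08 and 0.70 ± 0.10 in the same step, *Gdf5* by 0.59 ± 0.10 and *Bmp2* by 0.51 ± 0.09, or by 0.33 for *Bmp2* at 2 times the resolution of the clustering. From Day 7 to Day 10 the *Bmp4* change was -0.20 (edgeR adjusted p = 0.178), and it passed at -0.43 without Day 10 replicate B (edgeR adjusted p = 0.0055).

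*Bmp6* rose at each step in chondrocyte-like cells. It was at 0.818 and 1.04 TMM CPM at Day 2, 4.92 and 4.68 at Day 7, then 10.4 and 8.75 at Day 10, with no overlap between days. Its log2 fold changes were 2.38 ± 0.19 and 1.0002 ± 0.11 (edgeR adjusted p = 2.43e-08 and 5.49e-06). *Gdf10* turned instead, from 58.0 and 57.9 TMM CPM at Day 2 to 26.9 and 22.3 at Day 7, then 38.0 and 40.2 at Day 10. The days did not overlap. *Gdf10* fell by 1.24 ± 0.08 to Day 7 and rose by 0.67 ± 0.08 to Day 10 (edgeR adjusted p = 1.74e-09 and 1.03e-05). *Bmp3* was at 1.16 and 0.846 TMM CPM at Day 2 and at 4.69 and 6.78 at Day 7, a rise of 2.49 ± 0.23, and the change was 7.00 in clusters drawn without integration, where Day 2 chondrocyte-like cells had 0.131 and 0 CPM of *Bmp3*. Its change from Day 7 to Day 10 was -0.29 (edgeR adjusted p = 0.148). With each library left out it ranged from -0.54, without Day 7 replicate A, to -0.0088. It passed at -0.66 without integration and -1.22 at 2 times the resolution.

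From Day 7 to Day 10, *Bmp5* fell by 1.31 ± 0.11 in chondrocyte-like cells (edgeR adjusted p = 5.15e-07), from 8.80 and 7.99 to 3.53 and 3.22 TMM CPM. *Gdf5* was at 7.66 and 7.39 TMM CPM at Day 7 and 6.39 and 6.01 at Day 10, with a log2 fold change of -0.28 ± 0.10 (edgeR adjusted p = 0.0372). That call was lost with DESeq2 (adjusted p = 0.138) and without any 1 of the Day 7 or Day 10 libraries (edgeR adjusted p = 0.187 and 0.100 without Day 7 replicates A and B, 0.0814 and 0.165 without Day 10 replicates A and B), and the change was -0.44 in clusters without integration. *Gdf5* in whole cultures fell by 2.11 in the same step.

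**Figure D5:**
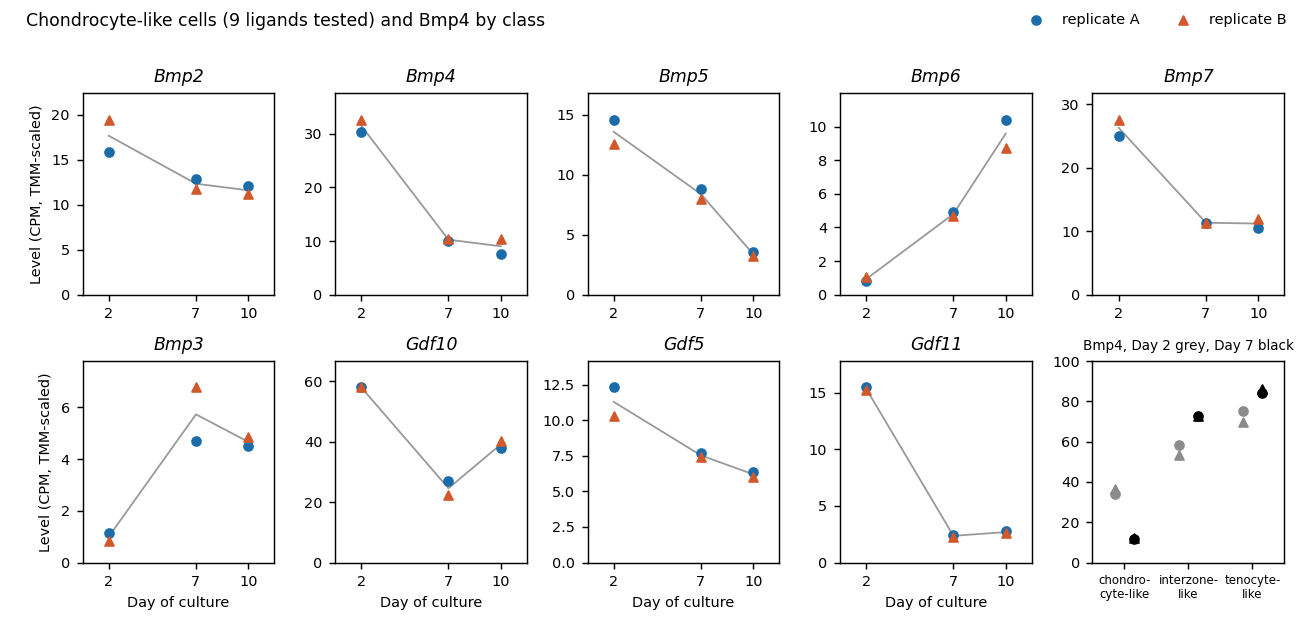
Level of 9 ligands in chondrocyte-like cells in TMM CPM against day, with circles for replicate A and triangles for replicate B, and in the last panel *Bmp4* in chondrocyte-like, joint interzone-like and tenocyte-like cells at Day 2 in grey and Day 7 in black. *Bmp6* climbs at each day, *Gdf11* drops once, and *Bmp4* lies at 11.7 and 12.1 in chondrocyte-like cells at Day 7 and at 72.7 and 72.6 in interzone-like cells.

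Whether the change from Day 2 to Day 7 differed between joint interzone-like and chondrocyte-like cells was tested with an interaction term in a fit that also held tenocyte-like cells. The test was added after the levels by cluster had been seen. The change differed for 7 of the 10 ligands, beside 50.2% of the 15142 genes tested. For tenocyte-like against chondrocyte-like cells it differed for 8 ligands beside 49.7%, and for interzone-like against tenocyte-like cells for 7 beside 26.2%. *Bmp4* was at 34.0 and 36.6 TMM CPM in chondrocyte-like cells at Day 2 and 11.7 and 12.1 at Day 7, and at 58.2 and 53.3 and then 72.7 and 72.6 in interzone-like cells. The *Bmp4* values thus moved apart, with a difference between the log2 fold changes of 1.94 ± 0.08 (edgeR adjusted p = 2.39e-14). The rise in interzone-like cells depended on the clustering, which also changed the cells that made up the Day 2 class. Without integration, interzone-like *Bmp4* was lower at Day 7, at 85.85 and 78.3 CPM against 99.9 and 102.7 at Day 2. At 2 times the resolution it was level, at 85.1 and 79.4 CPM at Day 7 against 84.1 and 79.8 at Day 2. *Gdf11* was at 17.3 and 17.1 and then 2.86 and 2.61 TMM CPM in chondrocyte-like cells, and at 25.1 and 24.5 and then 8.27 and 8.47 in interzone-like cells, a difference of 1.09 ± 0.14 (edgeR adjusted p = 1.54e-06). With clusters drawn without integration the differences were 1.28 for *Bmp4* and 2.06 for *Gdf11*, and those for *Bmp3*, *Bmp5*, *Bmp6* and *Bmp7* changed sign. For *Bmp3* the difference was 1.90 ± 0.37 here but passed the test in the opposite direction in both other clusterings, at -5.67 and -1.21. For *Bmp7* it was -0.52 ± 0.12 here and passed in the opposite direction without integration, at 0.45 (edgeR adjusted p = 0.00705). The directions for *Bmp3* and *Bmp7* thus depend on how the cells were clustered.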

How the data were processed

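The deposited matrices hold UMI counts per gene and barcode, which the authors made with Cell Ranger 6.1.2 on GRCm38 (mm10) from 10x 3′ libraries, 1 matrix per library and not normalized. The members and gene lists were chosen with earlier results of these data known. Cells were kept by the study's limits on UMIs, genes and mitochondrial and ribosomal shares, with at least 800 or 1000 UMIs per cell. UMI counts were summed per library and tested with edgeR 4.0.16 (R 4.3.3; filterByExpr, TMM, quasi-likelihood test, Benjamini-Hochberg adjustment over all genes tested, calls at an adjusted p under 0.05). All 6 libraries shared 1 estimate of the spread (common biological coefficient of variation 0.0689 in whole cultures and 0.0476 in chondrocyte-like cells, 3 residual degrees of freedom, TMM factors 0.927 to 1.14 and 0.864 to 1.25). The test was tested on simulated data. The labels call the replicates independent cultures, but not whether their embryos were separate pools, so p-values cover the spread between these cultures.

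Clusters were rebuilt per day with Seurat 5.3.0 (SCTransform 0.4.2, anchor integration over 3000 features, 35 dimensions, resolution 0.5 at Day 2 and Day 7 and 0.7 at Day 10), leaving out 61, 60 and 60 ligand and pathway genes. A name needed at least 3 markers with a log2 fold above 0.5 against the other clusters and a UMI in at least 10% of cells. This naming rule was chosen with the leading genes in view, and no doublet caller was run. Clusters stayed unnamed where the leading genes pointed to another class or held too few markers of their own. Shallow clusters stayed unnamed where none of the 10 leading genes was a marker of their class. Other shallow clusters were named, such as the myocyte-like cluster of Day 7, with median depths of 1590 and 1193 UMIs. Shares were thinned to 1000 UMIs per cell. Cluster levels used sums of at least 10 cells, and counting error is the only error that limits on single libraries cover. Alternatives were DESeq2 1.42.0 (size factors and Wald test), no filter on low counts, leaving out each library, the replicate letter as a block, all barcodes, cells with at least 3000 UMIs, clusters without integration on log-normalized counts, 2 times the resolution and, added after the data were seen, a wider chondrocyte-like class. Named beside the 10 ligands were the receptors, *Nog* and up to 3 of the most changed genes of each pathway list, and up to 5 leading genes of a cluster. *Gm47723* and *Gm26903* come from the annotation. Promoter sequences are from RefSeq (GRCm38.p6), where 5 of the 10 ligands were matched.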

Additional observations from a re-analysis of the deposited data

Results flagged for a closer look

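The change from Day 2 to Day 7 differed between joint interzone-like and chondrocyte-like cells for 7 ligands, by an edgeR interaction test added after the data had been seen. The differences between the log2 fold changes, interzone-like minus chondrocyte-like, were 1.94 for *Bmp4*, 1.90 for *Bmp3*, 1.09 for *Gdf11*, 0.92 for *Bmp5*, 0.73 for *Bmp2*, 0.38 for *Gdf5* and -0.52 for *Bmp7*. *Bmp2* gave 0.47 without Day 2 replicate B. The *Bmp5* call was lost without Day 2 replicate A (edgeR adjusted p = 0.0706) or Day 7 replicate A (0.0949, with a difference of 0.58). The *Gdf5* call was lost without Day 2 replicate A (edgeR adjusted p = 0.222) or Day 7 replicate B (0.441, with a difference of 0.12), and its difference was 0.58 without Day 7 replicate A. In the other clusterings the *Gdf5* difference was larger, at 1.63 without integration and 1.61 at 2 times the resolution. Interzone-like *Gdf5* was lower at Day 7 than at Day 2 in the clustering used here, at 59.0 and 76.6 CPM against 92.8 and 89.0, but higher in both others, at 79.3 and 91.4 against 39.98 and 38.9 without integration and at 69.95 and 89.97 against 42.2 and 35.4 at 2 times the resolution. In the other clusterings *Bmp3* passed in the opposite direction both times, at -5.67 without integration and -1.21 at 2 times the resolution. *Bmp7* passed in the opposite direction without integration, at 0.45 (edgeR adjusted p = 0.00705), and did not pass at 2 times the resolution. *Bmp5* turned to -0.30 and -0.28 in them without passing, and *Bmp2* did not pass in either. The other ligands, *Bmp6*, *Gdf6* and *Gdf10*, had differences of 1.57, 0.99 and 0.04 that did not pass (edgeR adjusted p = 0.0632, 0.311 and 0.699). The *Gdf6* difference ranged from 0.046 to 1.40 with each library left out. The clusters behind each class changed with the clustering. Without integration, most cells of the Day 2 interzone-like cluster used here lay in a cluster with no name, outside the class. At 2 times the resolution, part of them lay in a cluster named interdigital mesenchyme-like. The Day 2 interzone-like classes set side by side above thus held partly different cells. The share of that in these differences was not tested.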

How the results depend on the processing

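Of 360 changes of a ligand in whole cultures under an alternative, 340 kept their direction and their side of the threshold, as did 309 of 324 in chondrocyte-like cells. The differences between classes were less stable, with 42 of 60 kept and 8 turned in sign, and the level of the highest cluster moved by more than the spread between libraries in 30 of 60. From Day 7 to Day 10 the ligand called higher in whole cultures by edgeR changed with the libraries kept. *Bmp4* was not called without Day 7 replicate A, Day 7 replicate B or Day 10 replicate B. *Gdf10* took its place without Day 7 replicate A, at 0.32, and *Gdf11* without Day 10 replicate B, at 0.30. With all deposited barcodes the number called higher was 0, and no ligand passed at an unadjusted p under 0.05 either. Without Day 7 replicate B, 1 ligand, *Bmp4*, passed at an unadjusted p under 0.05. DESeq2 called 1 in all libraries. The number called higher by edgeR was 2 with cells of at least 3000 UMIs. In whole cultures and chondrocyte-like cells, the changes that turned sign were ones that had not passed the test. With each library left out, *Bmp5* from Day 2 to Day 7 ranged from -0.16 to 0.013, and from Day 7 to Day 10 *Bmp3* ranged from -0.12 to 0.11, *Gdf10* from -0.020 to 0.32 and *Bmp6* from -0.28 to 0.061. In that step *Bmp3* was 0.042 and *Bmp6* 0.0014 with all barcodes, and *Bmp3* was 0.019 with at least 3000 UMIs.

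In chondrocyte-like cells from Day 7 to Day 10, the ligands called lower were 1 to 3 with each library left out (1 without Day 7 replicate B or Day 10 replicate A), 1 with DESeq2, 4 without integration and 5 at 2 times the resolution. With each library left out *Bmp4* ranged from -0.43 to 0.026 and *Bmp7* from -0.11 to 0.067. *Bmp4* gave 0.022 when not integrated and 0.26 at the doubled resolution. In the difference between classes, clusters without integration gave -5.67 for *Bmp3*, -0.30 for *Bmp5*, -0.45 for *Bmp6* and 0.45 for *Bmp7*, and 2.21 for *Gdf10*. *Bmp2* gave 0.22 there and 0.31 at the doubled resolution, neither past the test. The doubled resolution gave -0.086 for *Bmp7* and -1.21, -0.28 and -0.18 for *Bmp3*, *Bmp5* and *Bmp6*, and *Gdf10* ranged from -0.11 to 0.15 with each library left out. By the one-way rule the highest cluster was matched in 18 of the 30 pairs at 2 times the resolution and in 17 without integration, and the ligands with lower shares of cells at Day 10 numbered 5 when not thinned. The cause was not tested.

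The replicate block, with the letter A or B as a covariate, called 3 ligands higher and 6 lower from Day 2 to Day 7, and 13135, 9607 and 14524 of all genes in the 3 comparisons against 13342, 9913 and 14670 without it. It changed no call count of the ligands. Same letters did not deviate together (r = -0.03, -0.08 and -0.09 over 8031 genes), which gave no sign of a pairing by letter. An r over genes cannot show whether cultures of the same letter shared embryos, which the labels do not give. Depth limits *Gdf6* at Day 10 and *Bmp6* at Day 2, with 35 to 87 UMIs per library.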

Other observations

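Over the 42 ranked clusters of all days, the genes whose levels were most like those of a ligand, by Pearson's r of log2(CPM + 1) among 10027 genes, are given as a description, since clusters share libraries, depth and days. *Bmp7* and *Gdf5* were among the nearest 3 genes of each other (r = 0.857). *Gdf5* was also near *Hs3st3a1* (0.891) and *Hs3st3b1* (0.857), a pair of heparan sulfate sulfotransferases. *Bmp7* was also near *Axin2* (0.852) and *Phlda2* (0.847). *Bmp6* was nearest *Slc38a3* (0.916), *Colgalt2* (0.881) and *Meltf* (0.875), and *Gdf11* nearest *Mex3a* (0.894), *Chd3* (0.889) and *Fzd3* (0.882). The partners of *Bmp5* were *Scube3* (0.873), *Klhdc10* (0.866) and *Clmn* (0.854), those of *Bmp3* were *Slc40a1* (0.862), *Cilp2* (0.782) and *Nr4a1* (0.780), and those of *Bmp4* were *Rnd3* (0.854), *Palm* (0.829) and *Vcam1* (0.825). *Bmp2* was nearest *St3gal6* (0.811), *Bcl2* (0.778) and *Igsf3* (0.773). *Gdf10*, with *Uxs1* (0.774), *Creb3l2* (0.772) and *Ctdspl* (0.767), and *Gdf6*, with *Slc25a23* (0.707), *Akap7* (0.702) and *Angptl1* (0.7004), had weaker partners.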
